A study of Aspergillus luchuensis with 6 samples.

Results

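The start sites described here are 420 tag clusters of Aspergillus luchuensis mut. kawachii, a filamentous fungus used in koji making, whose level in a laeA disruptant was at most 25% of the control level. They were taken from 22841 clusters in all, of which 16296 had a control mean of at least 2 CPM (tags per mega-tag, M, counted). A cluster is a run of transcription start positions on a strand, joined where they lay at most 20 bp apart. A member had to have a control mean of at least 2 CPM, a disruptant mean of at most 25% of it, and no disruptant library at or above a control library. The members were therefore chosen by the control and disruptant levels themselves, so those levels are a description and carry no test. The control libraries are labelled strain ctrl345, genotype control, and the disruptant libraries are labelled strain sirD, genotype laeA deletion, with 3 libraries in each group. Mycelia of every library were shaken at 30 °C for 36 h in M medium, moved to CAP medium and shaken for another 12 h. The labels do not say whether the strains share a parent, what sirD stands for, or whether libraries of a strain came from separate cultures, so loss of laeA cannot be told apart from any other difference between the strains, and the spread between libraries may be technical.

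LaeA is a nuclear protein with a methyltransferase fold, known in Aspergillus species as a global regulator of secondary metabolism. Secondary metabolites such as polyketides and nonribosomal peptides are made by enzymes whose genes often lie side by side, and loss of LaeA is known to silence many such gene clusters. CAGE (cap analysis of gene expression) is designed to read the capped 5′ ends of RNA molecules, so a tag's position is taken as a transcription start. Whether each cluster is a true start site was not tested. The number of tags reflects how much of that RNA was present, and not directly how often transcription started. The start positions carry scaffold names and no gene names, so no member is given a gene, and laeA transcripts could not be looked up.

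The 6 libraries held 11.2 to 16.1 M tags on the scaffolds used. A count of 3 tags in a library corresponds to 0.186 to 0.268 CPM, and levels below that are close to the limit of detection. Scaffold DF126582.1, which was left out, took 9.42 to 17.2% of all tags in the controls and 7.49 to 17.3% in the disruptants. Tags carry no molecular identifiers, so floors and counting intervals cover counting error only.

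Together the members made up a small part of the control transcriptome. Their summed level was 19985, 27354 and 23156 CPM in controls 1, 2 and 3 and 2465, 2464 and 2173 CPM in disruptants 1, 2 and 3. The means were 23498 ± 3696 CPM in control and 2367 ± 168 CPM in disruptant libraries (SD, n = 3), or 2.35% and 0.237% of the tags. The disruptant thus held 10.1% of the members' summed control level. Taken cluster by cluster, the median was 11.8% over members and 100.4% over all clusters with a control mean of at least 2 CPM. Mycelia were measured in bulk, so fewer cells using a site and fewer tags per cell cannot be told apart.

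"Switched off" described only some of the members. In the disruptant 25 members had no tag in any library and 44 held at most 1% of their control level. A further group was only reduced: 234 of the 420 held more than 10% of the control level, and the median over members was 11.8% (quartiles 4.30 and 19.0%). In absolute terms 269 members had a disruptant mean under 1 CPM, while 28 still had at least 10 CPM and 4 at least 100 CPM. Most members were weak in the control too, with a median control mean of 6.15 CPM; 187 were under 5 CPM, 32 were at or above 100 CPM and 7 were at or above 1000 CPM. The 10 strongest members carried 62.1% of the summed control level.

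**Figure D1:**
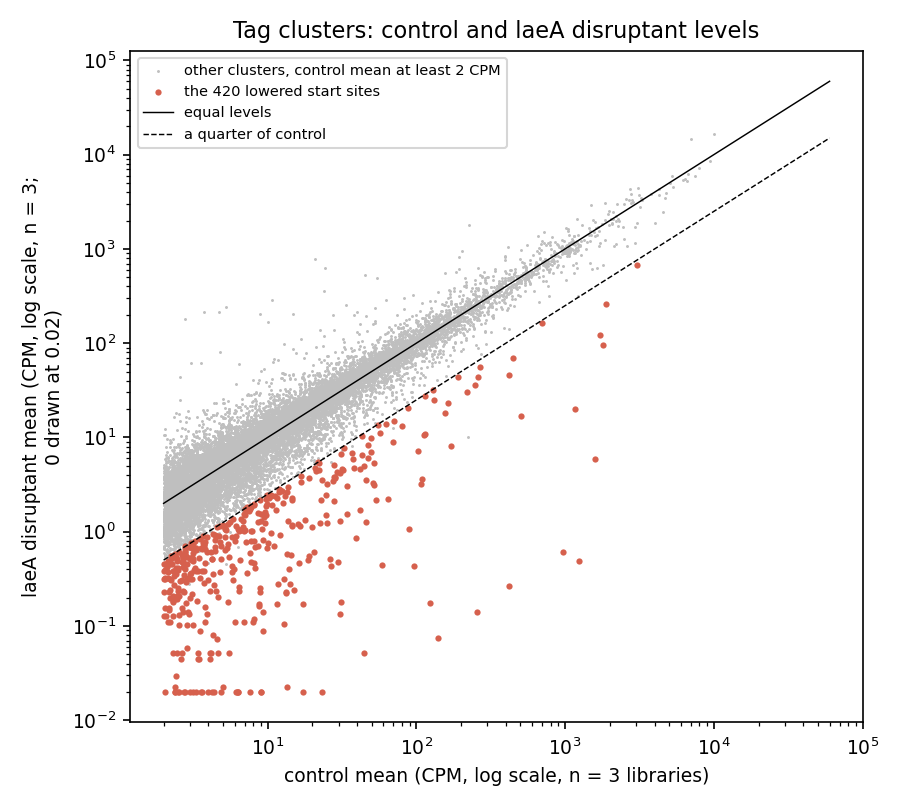
Each point is a tag cluster with a control mean of at least 2 CPM, placed by its control mean (x axis, CPM, log scale, n = 3 libraries) and its laeA disruptant mean (y axis, CPM, log scale, n = 3, with 0 drawn at 0.02). The 420 lowered start sites (orange) lie on or below the dashed line of 25% of control and reach from 2.00 to 3040 CPM in the control; grey points below that line are clusters whose groups overlapped.

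At the edges of the rule, members and non-members differed little. The member on DF126452.1, minus strand, 1245213 to 1245261 had 21.9 ± 5.19 CPM in the control and 5.45 CPM in the disruptant, just under the limit of 25%. The nearest cluster outside, on DF126448.1, plus strand, 828385 to 828468, had 20.9 ± 4.29 and 5.23 CPM, just over it (SD, n = 3). The next in either direction were weaker, with 7.02 and 1.75 CPM inside (DF126472.1, minus strand, from 489149) and 2.16 and 0.540 CPM outside (DF126458.1, minus strand, from 50308). At the limit of 2 CPM, the members on DF126461.1, minus strand, 370548 to 370606, and DF126451.1, minus strand, 886940, had control means of 2.005 and 2.012 CPM. The clusters just outside, on DF126447.1, minus strand, 700311 to 700313, and DF126454.1, minus strand, from 931256, had 1.998 and 1.997 CPM. Among clusters with a control mean of at least 2 CPM, 458 (2.81%) held at most 25% of the control level, and 38 of these were left out because their groups overlapped. The strongest of the 38, chosen after its values were seen, was on DF126472.1, plus strand, 334178 to 334225. Its controls held 7.11, 617 and 46.1 CPM and its disruptants 10.04, 10.1 and 9.93 CPM. Control 2 was far above all others, and control 1 lay below every disruptant.

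The strongest member was on DF126459.1, plus strand, 191726 to 191971. It held 2168, 4020 and 2934 CPM in controls 1 to 3 and 673, 832 and 514 CPM in disruptants 1 to 3. The groups did not overlap, yet with 22.1% of its control level left this site still ranked number 220 of all 22841 clusters in the disruptant, down from number 26 in the control. Its partner on the opposite strand, 190794 to 191131, had its dominant start 882 bp away. This site held 1690, 1814 and 1645 CPM in the controls, the most even of the 10 strongest (1716 ± 87.3 CPM, SD, n = 3). In the disruptants 138, 101 and 124.5 CPM remained (121 ± 18.6 CPM), a 14.1-fold lower level.

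The next in strength were on DF126476.1, plus strand, 131372 to 131676, and DF126450.1, plus strand, 715118 to 715206. The site on DF126476.1 held 2063, 1162 and 2418 CPM in the controls and 210, 309 and 258 CPM in the disruptants, so 13.8% remained. The site on DF126450.1 held 1776, 1143 and 2491 CPM in the controls and 92.1, 118 and 79.5 CPM in the disruptants, so 5.35% remained. In both, control 2 was the lowest control and control 3 the highest.

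Scaffold DF126486.1 held 3 of the 10 strongest members. Positions 91006 to 91277 on the plus strand had 1295, 2696 and 741 CPM in the controls and 8.44, 3.57 and 5.90 CPM in the disruptants, 264-fold lower on average. Its log2 ratio of disruptant to control was -8.05, and -7.41 without control 2. Positions 71954 to 72156 on the minus strand had 1065, 1405 and 1010 CPM in the controls and 20.8, 18.0 and 21.0 CPM in the disruptants, 58.1-fold lower. Positions 90391 to 90603 on the minus strand had 403, 610 and 495 CPM in the controls and 18.2, 15.9 and 16.9 CPM in the disruptants, 29.5-fold lower. All 3 sites were highest in control 2, and the disruptants of the minus-strand sites lay close together (SD 1.67 and 1.14 CPM).

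A contrast to these was the member on DF126458.1, minus strand, 449500 to 449564, whose groups barely separated. It held 320, 1511 and 283 CPM in the controls and 262, 91.6 and 135 CPM in the disruptants. Control 2 alone raised the control mean to 704 ± 699 CPM (SD, n = 3), and the lowest control was close to the highest disruptant. Its log2 ratio of disruptant to control was -2.11, and -0.89 without control 2, which no longer meets the rule. With the strongest sites of DF126459.1 and DF126476.1, it was among the 3 members with the highest disruptant level (673, 259 and 163 CPM).

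**Figure D2:**
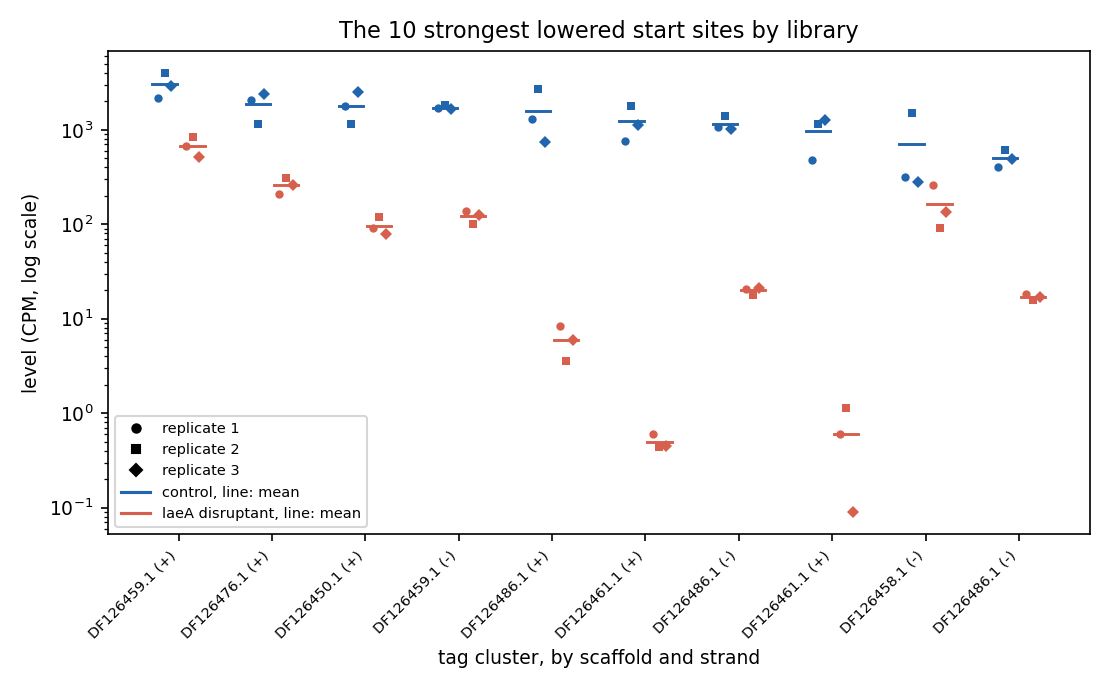
Levels (y axis, CPM, log scale) of the 10 strongest lowered start sites in every library, named by scaffold and strand on the x axis, with a line at each group's mean. The 2 sites on DF126461.1 lie at or under 1.13 CPM in every disruptant, whereas the site on DF126458.1 has controls of 283 to 1511 CPM against disruptants of 91.6 to 262 CPM.

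Among members with a control mean of at least 10 CPM that kept any tag, the 5 largest drops were on scaffolds DF126461.1 and DF126486.1. The plus-strand site at 697183 to 697407 of DF126461.1 went from 760, 1803 and 1137 CPM in the controls to 0.603, 0.435 and 0.447 CPM in the disruptants, or 0.0401% of control. Another plus-strand site there, 707121 to 707287, went from 480, 1151 and 1262 CPM to 0.603, 1.13 and 0.0895 CPM, or 0.0631%; its log2 ratio was -10.63, and -11.44 without disruptant 2. The minus-strand sites 696823 to 697006 and 706825 to 706928 of this scaffold kept 0.0631 and 0.0547% of control means of 422 and 257 CPM. The latter rests on 6 disruptant tags, none of them in disruptant 3, and its log2 ratio of -10.84 was -10.25 without that library. On DF126486.1, the minus-strand site 105183 to 105249 had 83.5, 200 and 137 CPM in the controls and 3 tags in the disruptants together, a 1776-fold lower share of pooled tags with an exact binomial 95% counting interval of 607 to 8614. The plus-strand site 106434 to 106637, whose dominant start lay 1352 bp away, had 70.5, 220 and 77.8 CPM in the controls and 6 tags in the disruptants (0.144% of control). Its log2 ratio of -9.44 was -8.71 without control 2 and -10.08 without disruptant 3. A site on DF126454.1, plus strand, 1120204 to 1120226, named after its values were seen, had 38.9, 57.2 and 37.0 CPM in the controls and 2 tags in the disruptants, an 847-fold lower share of pooled tags (interval 234 to 6995).

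Complete absence was seen only for members of at most 23.1 CPM. The 25 members without a disruptant tag had control means of 2.03 to 23.1 CPM, which makes them at least 25.4-fold to at least 289-fold lower against a floor of 3 tags over the disruptant group. Of these, 11 were on DF126461.1, 4 on DF126486.1 and 3 on DF126456.1. One of the steadiest was on DF126454.1, plus strand, 1123389 to 1123468, with 17.8, 16.4 and 17.8 CPM in the controls and 0 tags in each disruptant, at least 217-fold lower.

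Members were spread over 55 of the 109 scaffolds that held any cluster with a control mean of at least 2 CPM, but not evenly. DF126450.1 held the most members, 32, which were 5.57% of its 574 such clusters. On DF126486.1 the share was far higher, 22 of 76 (28.9%), and on DF126476.1 it was 21 of 122 (17.2%), against 2.58% over all scaffolds. Strands were used alike, with 207 members on the plus and 213 on the minus strand. Members lay a median of 154 kb from the nearer end of the scaffold as covered by the table, against 202 kb for all clusters of at least 2 CPM, and 17.4% against 14.8% lay within 50 kb of an end.

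Some members also lay near each other. Same-strand members at most 500 bp apart were counted as a promoter, which gave 300 promoters. When members at most 10 kb apart on either strand were joined, 18 blocks held at least 3 promoters. These blocks spanned 1.82 to 16.5 kb (median 5.21 kb) and held 116 of the 420 members (27.6%) with 58.1% of the summed control level. Some promoters in the blocks held several members, so this is not a share of promoters. No matching share over all clusters is given. At the other end, 158 members had no other member within 10 kb.

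In the block of DF126461.1, positions 696823 to 707523, 16 members in 6 promoters went from 1724, 3956 and 3327 CPM in the controls to 2.34, 2.26 and 1.25 CPM in the disruptants. Counting every tag in the span, also those outside clusters, 0.164% of the control level was left. Only 1 other cluster of at least 2 CPM lay inside, at 35.8% of control. The nearest clusters of at least 2 CPM outside that were not members, 16.0 kb to the left and 8.89 kb to the right, held 104 and 116% of their control levels. Between the left one and the block lay a further member, at 684094 to 684102 on the plus strand (5.02 CPM in the control, 0.445% left). It was too far from the block to be joined at 10 kb.

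A different picture was seen on DF126450.1, positions 671290 to 682999. Its 7 members in 7 promoters went from 126, 193 and 192 CPM to 9.04, 8.27 and 7.16 CPM, and each held 1.25 to 15.1% of control. Between them lay 8 other clusters that held 30.0 to 49.4%, so every cluster of at least 2 CPM in this span had a lower mean than in the control, by unequal amounts. Its strongest member, on the plus strand at 675388 to 675440 (64.3 CPM, 3.49% left), stood head-to-head with one at 674956 to 674990 (13.6 CPM, 9.52% left). The nearest clusters outside that were not members, 24.8 kb to the left and 5.14 kb to the right held 215 and 208%. All tags of the span together held 34.1% of the control level.

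On DF126470.1, positions 325445 to 333649, members lay among sites that kept more. The 8 members went from 205, 67.7 and 190 CPM to 3.28, 3.40 and 3.22 CPM, while 3 other clusters inside held 32.2 to 95.3% of control and a flanking cluster 165 bp to the left held 85.0%. Its strongest member, on the plus strand at 333590 to 333649, had 117, 36.1 and 114 CPM in the controls and 0.736, 1.05 and 1.43 CPM in the disruptants.

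Other blocks also differed in how much was left. On DF126454.1, positions 1119374 to 1123468, 4 members went from 62.0, 79.3 and 60.6 CPM to 0.0669, 0.174 and 0.179 CPM, with no other cluster inside. On DF126456.1, positions 403572 to 407020, 5 members went from 36.3, 67.8 and 52.2 CPM to 0.469, 0.871 and 0.179 CPM, while the only other cluster inside held 197% of control. More was left on DF126463.1, positions 179284 to 182840, where 4 members held 20.3% of their summed control level with no other cluster inside. On DF126468.1, positions 479576 to 485739, 3 members held 16.9% among 14 other clusters at 17.9 to 108%. Over the 18 blocks, 49 clusters of at least 2 CPM inside the spans were not members, 12 of them above their control level, and 6 blocks held none.

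**Figure D3:**
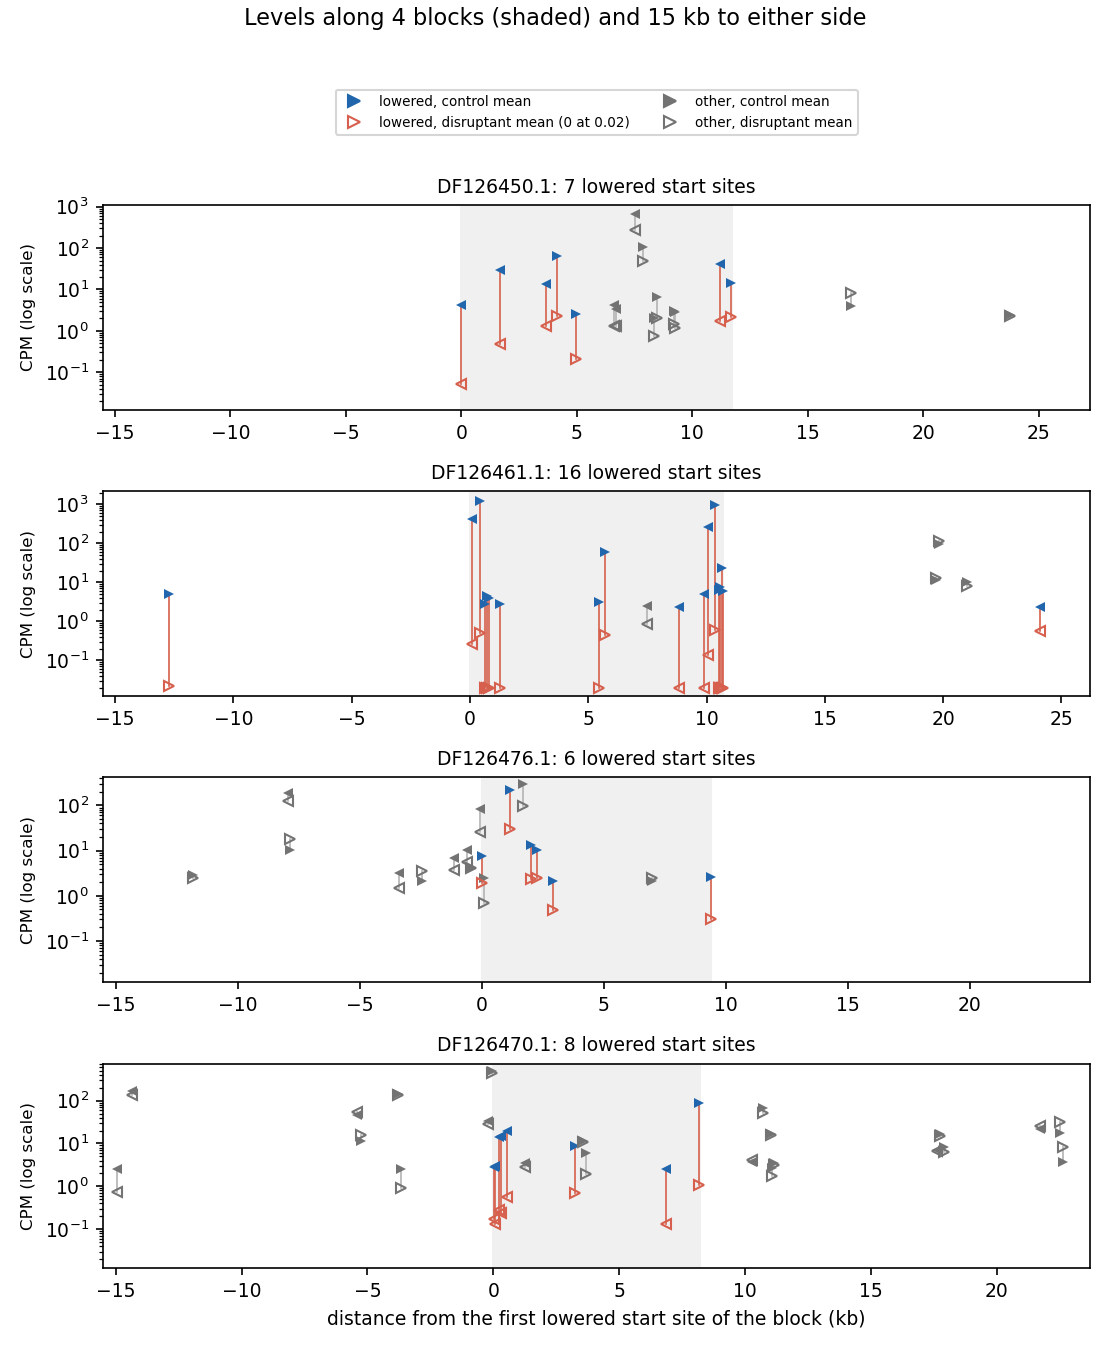
Control means (filled) and disruptant means (open) of clusters with a control mean of at least 2 CPM along 4 blocks (shaded) and 15 kb to either side; the x axis is the distance in kb from the block's first member, the y axis CPM on a log scale with 0 drawn at 0.02, and triangles point in the direction of transcription. Lowered sites fill the block on DF126461.1, where 11 of 16 have no disruptant tag, and share the block with other clusters (grey) on DF126450.1, DF126476.1 and DF126470.1. The block drawn for DF126476.1 is the one of 6 members at 227679 to 237086, which does not hold the strongest member of that scaffold.

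Many members accompanied a stronger one. In 50 promoters with several members, the strongest was joined by 120 weaker members, 90 of them downstream of it and 30 upstream. The strongest member of these promoters ranged from 3.17 to 3040 CPM in the control, so in some every member was weak. Matching counts over all clusters of at least 2 CPM are not given. The longest row was on DF126450.1, where 15 weaker members of 2.16 to 39.1 CPM followed the site at 715118 to 715206 over 2316 bp, and each held 0.935 to 10.6% of control. Behind the strongest member of DF126459.1, 7 weaker members of 2.21 to 132 CPM extended over 1772 bp and held 5.05 to 19.0%. Whether such members belong to the gene of the stronger site was not tested, so the number of members is not a number of genes.

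Many strong members faced another member. Counting only the strongest cluster of each promoter, chosen after the values had been seen, 23 head-to-head pairs of members (a minus-strand site followed by a plus-strand site at most 2000 bp to the right) were found, with dominant starts 200 to 1853 bp apart (median 653 bp). These promoters were built from members alone, so clusters that were not members could lie between or across the sides of a pair. On DF126458.1 the minus-strand side at 504404 to 504409 lay within a plus-strand cluster of 584 CPM that kept 75.4%. The pairs included 9 of the 10 strongest members and held 66.2% of the summed control level. The sides of a pair were often very unequal. On DF126450.1 the plus-strand site of 1803 CPM faced a minus-strand site of 8.69 CPM at 714218 to 714265, which kept 1.87% of control. On DF126500.1 the sides were alike, at 18.7 CPM (11286 to 11317, minus strand) and 20.6 CPM (12381 to 12423, plus strand), with 0.502 and 0.605 CPM in the disruptants.

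Head-to-head promoters were also common elsewhere. When promoters were built from all clusters of at least 2 CPM, 4334 of 9722 (44.6%) stood head-to-head with their neighbour, against 73 of the 215 promoters led by a member (34.0%). Among promoters whose leading site had at least 100 CPM, chosen after the values had been seen, the shares were 51.5% of 1317 and 18 of 30. With promoters built from all these clusters, both leading sites were members in 20 pairs, fewer than the 23 found from members alone. Only 1 side was a member in 33. At a distance of at most 500 bp between dominant starts, 31 members (7.38%) had a divergent partner of at least 2 CPM, against 22.8% of all such clusters. In 20 of the 31 a partner was itself a member; the 15 partners that were not members held a median of 78.4% of control.

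A start site could be low while another close by on its strand was not. Of the members, 141 had a same-strand neighbour of at least 2 CPM within 500 bp that was no member, and these 217 neighbours held a median of 44.5% of control; 124 of them were under 50% and 23 at or above 100%. The sharpest contrast at a strong member was on DF126486.1. Only 21 bp upstream of the site at 91006 to 91277, the cluster at 90883 to 90985 held 9.68, 16.3 and 12.6 CPM in the controls and 9.64, 11.5 and 9.13 CPM in the disruptants, so 78.4% was left where the larger site kept 0.379%. Here the groups overlapped.

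For 39 members the neighbour that kept at least 75% of its level was the stronger site. An example, chosen after its values were seen, was on DF126450.1, plus strand. The member at 1432045 to 1432115 held 9.15, 48.9 and 22.6 CPM in the controls and 0.335, 0.523 and 0.447 CPM in the disruptants. Starting 188 bp downstream of it, the cluster at 1432303 to 1432717 held 439, 1030 and 275 CPM in the controls and 829, 422 and 820 CPM in the disruptants, which overlapped. On DF126492.1 the order was the reverse: the member at 135087 to 135159 (16.9 CPM in control, 20.1% left) lay 152 bp downstream of a site of 49.7 ± 7.41 CPM that held 62.3 ± 11.7 CPM in the disruptants (SD, n = 3). In the 43 such pairs the kept site was upstream in 26.

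The members used narrower start regions than other clusters. The distance between the 10% and 90% points of the control tags had a median of 18 bp over members (quartiles 8.75 and 27 bp), against 32 bp over all clusters of at least 2 CPM. Among clusters with a control mean of at least 10 CPM the medians were 20 bp for 145 members and 41 bp for 7626 clusters. The dominant position took a median of 33.0% of the control tags in those 145 members and 22.4% in those 7626 clusters. Because clusters were joined from the pooled libraries, a site that is low in the disruptant can lose weak positions at its edges. With clusters joined from the control libraries alone, the medians were 22 bp for 159 clusters that overlapped a member and 42 bp for 7680 clusters of at least 10 CPM. Width was set by the position of the tags and not used by the rule, but no test is given because clusters are not replicates.

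**Figure D4:**
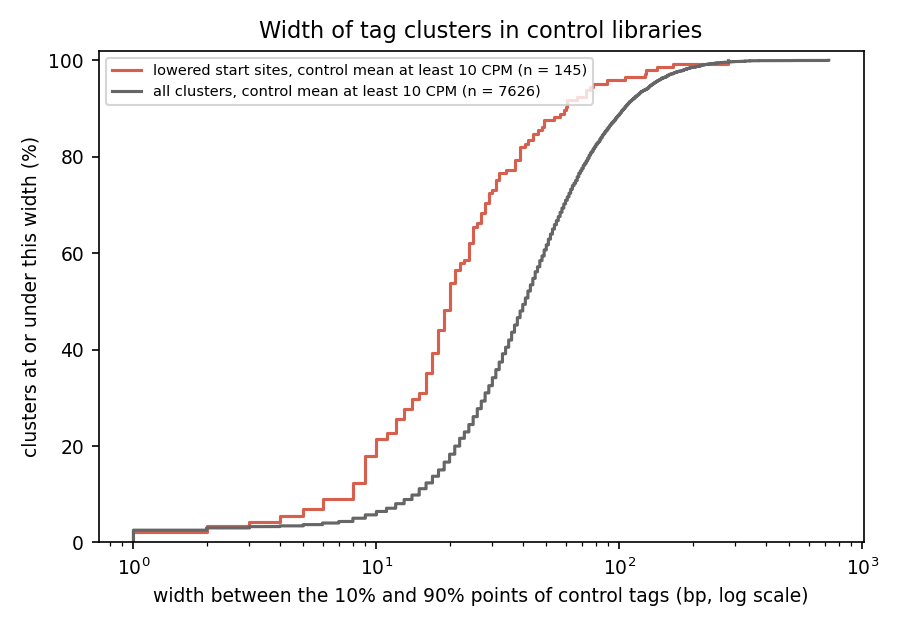
Share of clusters (y axis, %) at or under a given width (x axis, bp between the 10% and 90% points of control tags, log scale), for the 145 lowered start sites and all 7626 clusters with a control mean of at least 10 CPM. The curve of the lowered sites rises at smaller widths, with medians of 20 and 41 bp.

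The strong members were not uniform in shape. Widths here are again between the 10% and 90% points of the control tags, and whole clusters are longer. The strongest, on DF126459.1, had a width of 143 bp, with 23.5% of the control tags at the dominant position. Its partner on the opposite strand was narrow, 16 bp with 45.3% at the dominant position. The site of DF126486.1 at 91006 to 91277 had a width of 13 bp and that of DF126458.1 at 449500 to 449564 one of 10 bp. The width of 90391 to 90603 of DF126486.1 was 76 bp.

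Where tags remained in the disruptant, most started at the same place. Of 229 members with at least 20 disruptant tags, 167 (72.9%) had the same dominant position in control and disruptant tags, and 14 (6.11%) had dominant positions more than 20 bp apart. Over all clusters of at least 2 CPM with as many tags the shares were 79.5 and 5.93%. Among members, the largest distances were 104 bp on DF126470.1 (minus strand, 325994 to 326171), 68 bp on DF126458.1 (minus strand, 241088 to 241211) and 61 bp on DF126450.1 (plus strand, 717294 to 717499). These rest on 20, 74 and 34 disruptant tags and are broad clusters, with 10% to 90% widths of 166, 87 and 129 bp.

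The control libraries differed more from each other at the members than elsewhere. The coefficient of variation over the 3 controls had a median of 0.379 over members and 0.231 over all clusters of at least 2 CPM, and 0.349 and 0.198 at or above 10 CPM. It exceeded 0.5 in 115 members (27.4%) against 9.78% of all those clusters. Control 2 was the highest control in 212 members (50.5%), although it was the highest in 28.5% of all those clusters, and control 1 was the highest in 71 members (16.9% against 26.2%). The rule uses the control mean and the lowest control, so this spread is not wholly independent of it.

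The largest spread was on DF126453.1, plus strand, 508536 to 508562, with 4.94, 76.4 and 10.3 CPM in the controls and 1.61, 1.31 and 0.984 CPM in the disruptants. Next came DF126491.1, minus strand, 76814 to 76837, with 3.49, 62.0 and 13.8 CPM against 0.469, 0.697 and 0.358 CPM, and DF126452.1, minus strand, 94355 to 94418, with 13.6, 43.3 and 2.49 CPM against 1.87, 0.435 and 1.07 CPM. In all 3 control 2 was several times higher than the other controls, and their log2 ratios of -4.56, -5.70 and -4.13 were -2.56, -4.09 and -2.83 without it. The steadiest members of at least 10 CPM were on DF126574.1, minus strand, 3269 to 3378 (22.0, 22.3 and 22.3 CPM in the controls), DF126468.1, plus strand, 70402 (10.1, 10.6 and 11.1 CPM) and the site of DF126454.1 at 1123389 to 1123468 named above.

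The control with the highest summed level differed between blocks. Control 2 was the highest in 14 of the 18 blocks, control 1 in 3 and control 3 in 1. The row of members behind 715118 to 715206 on DF126450.1 is not among the 18, since it held fewer than 3 promoters. Control 2 was the lowest control at its strongest site (1776, 1143 and 2491 CPM in controls 1 to 3). On DF126461.1, 13 of 16 members were highest in control 2, on DF126486.1 (86288 to 91789) 10 of 11, and on DF126456.1 5 of 5. On DF126470.1, in contrast, all 8 members were highest in control 1, and control 2 held 67.7 CPM against 205 and 190 CPM in controls 1 and 3. On DF126476.1 (129834 to 133794), 9 of 12 members were highest in control 3. On DF126450.1 (671290 to 682999) the 7 members were split, with 1 highest in control 1, 2 in control 2 and 4 in control 3. The lowest control was not shared either: on DF126461.1 it was control 1 for 8 members, control 2 for 1 and control 3 for 7. Clusters of a block share these libraries and some share a promoter, so these counts describe the 3 libraries and are not tested.

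**Figure D5:**
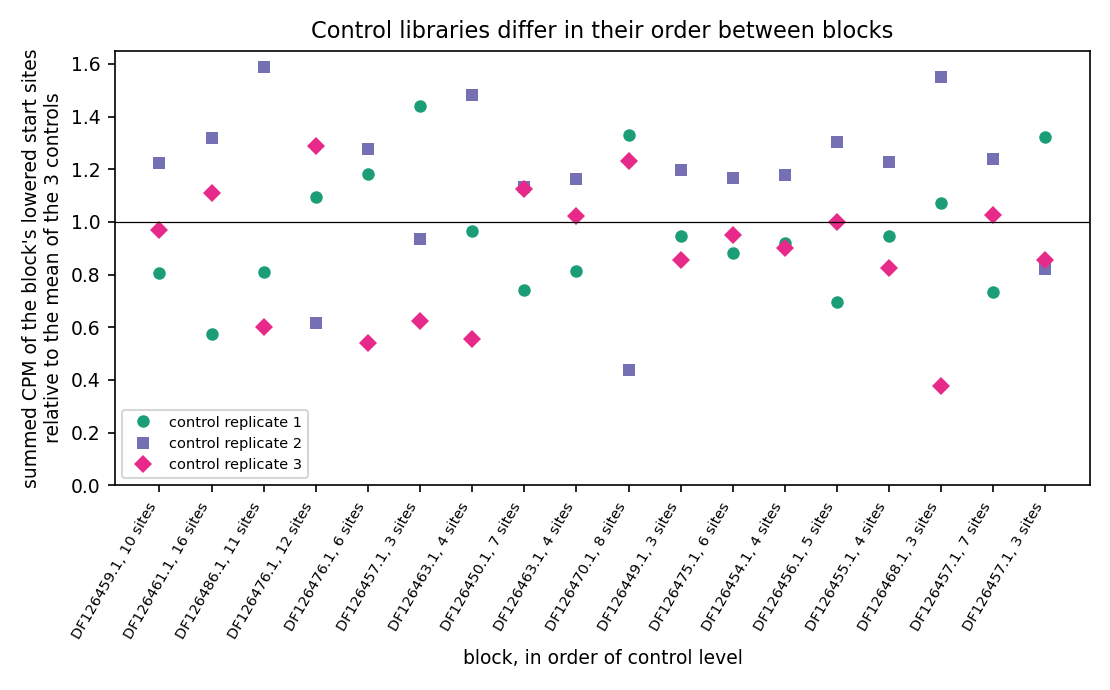
Summed level of the lowered start sites of each of the 18 blocks in the 3 control libraries, relative to the mean of the 3 (y axis), with the blocks in order of control level on the x axis. Control 2 is the highest in 14 blocks but the lowest on DF126476.1 (12 sites), on DF126470.1 and in a block of 3 sites on DF126457.1.

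For the background, all clusters were compared between strains with edgeR's quasi-likelihood test. Of 22777 clusters tested, 895 (3.93%) were lower in the disruptant at a Benjamini-Hochberg adjusted p under 0.05. The count was 381 (1.67%) at an adjusted p under 0.01, 558 (2.45%) with the replicate number as a block, and 1352 of 22839 (5.92%) with DESeq2's Wald test. It depended on single libraries too, and lay between 399 without disruptant 3 and 1563 without control 3. Of the 420 members 408 passed the filter on low counts and 392 were called lower; as the members were chosen from the same contrast, nothing is read from that count. Every disruptant library was below every control library in 2149 (13.2%) of the 16296 clusters of at least 2 CPM, of which the members are 420.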

How the data were processed

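The authors deposited raw CAGE tag counts per start position, without scaling, for 3 control and 3 laeA disruptant libraries (8582186 positions). FastQC, BWA and bedtools are named in the submitters' processing notes; the genome build and the handling of multiply mapping tags are not given in the sources used here. Positions count from 0 in the table and from 1 here. The smallest minus-strand position was 31 and the smallest plus-strand position 1, so distances between strands may be off by a constant. Positions on scaffolds named DF, except DF126582.1, were used (8533072). CPM was taken over the total of these. Positions with at least 0.1 pooled CPM were joined at 20 bp, and clusters of at least 1 pooled CPM were kept; they held 91.5% of the tags.

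Groups follow the sample titles. edgeR 4.0.16 (R 4.3.3) used TMM factors, filterByExpr and the quasi-likelihood F test, and was tested on simulated data; DESeq2 1.42.0 was an alternative. Within groups, counts differed beyond sampling noise for every pair of libraries (chi-square per degree of freedom 12.4 to 54.2). Named clusters are the 10 with the highest control mean, the 6 with the largest fold at 10 CPM or more (the disruptant mean taken at no less than 3 tags over the group), the strongest of the 6 largest blocks, those at the thresholds, the 3 highest in the disruptant, the 3 with the largest and the 3 with the smallest control variation, and the 3 with the largest start distance. The largest blocks were taken by number of members, whatever their number of promoters. The members and rules were chosen with earlier results of these data known. No sequence was used.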

Additional observations from a re-analysis of the deposited data

How the results depend on the processing

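The number of members, 420, was 217 with a limit of 12.5% of control, 1130 with 50%, 233 with a control mean of at least 5 CPM and, with other joining distances, position minimums or scalings, 342 to 482. It ranged from 368 to 623 without each library in turn (368 without control 2, 623 without control 3), and 335 to 403 of the 420 were among them. TMM and DESeq2 scaling gave 458 members each, all 420 included. Fewer were recovered with a position minimum of 0.5 CPM, where the 342 members overlapped 286 of the 420. With CPM by the total over all rows there were 343 members, and 342 of the 420 were overlapped. The members' share of tags was 2.35% in control and 0.237% in disruptant libraries, and 1.84% and 0.187% of all tags in the table, which include scaffold DF126582.1; without each control it was 2.16 to 2.53%, and without each disruptant 0.232 to 0.246%. Of all clusters, edgeR called 895 lower, 558 with the replicate block (545 shared), 381 at an adjusted p under 0.01 and DESeq2 1352, and 399 to 1563 without each library in turn (515 without control 1, 533 without control 2, 1563 without control 3, 538 and 399 without disruptants 2 and 3). The replicate numbers did not pair the libraries: deviations of same-numbered libraries correlated at 0.433, -0.420 and -0.0696, and 1 of 6 libraries correlated best with its own number. With the block 350 members were called lower, with the other alternatives 281 to 419. Members with a divergent partner, 31 within 500 bp (7.38%, all clusters 22.8%), were 89 within 1000 bp (21.2%, 35.4%), 8 within 250 bp (1.90%, 13.6%) and 9 of 145 at 10 CPM or more (6.21%, 17.9%). The median width, 18 bp, was 8 bp between the 25% and 75% points (16 bp for all clusters), 17 to 18 bp without each control, 20 bp at 10 CPM or more, 20 bp with clusters from the controls alone (33 bp for all) and 22 bp with both. The median control coefficient of variation was 0.349 at 10 CPM or more. Members with the same dominant position were 79.8% with at least 50 disruptant tags (79.6% for all clusters of at least 2 CPM). Blocks numbered 16 at 5 kb and 22 at 20 kb. The settings at 10 CPM or more and the control-only clusters were added after the data were seen. The log2 ratios of the 32 named clusters kept their direction in all 320 recomputed values. For the 28 members among them the rule itself fixes the direction when a library is left out, so nothing is read from this. Of the 320 values, 26 moved by more than the spread of the controls. The cause of these changes was not tested.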
